A study of Mus musculus with 12 samples.

Results

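Subunit genes of NMDA and kainate receptors, which are ionotropic glutamate receptors, were followed in glia of the mouse spinal cord at postnatal day 7. They were taken by name from the counted genes: 10 of the 53465 genes in the libraries, 5 NMDA receptor genes (Grin1, Grin2a, Grin2b, Grin2c and Grin3a) and 5 kainate receptor genes (Grik1 to Grik5). All cells came from Aldh1L1-GFP/Olig2-tdTomato mice on a C57BL/6 background, so the mice behind every fraction carried both reporter genes. No reporter-free fraction was analysed here. Brachial and thoracic cord was dissociated with papain and sorted by fluorescence into cells with eGFP alone, cells with tdTomato alone, and cells with both, termed the eGFP, tdTomato and eGFP/tdTomato fractions. Each fraction had 4 libraries, numbered 1, 2, 3 and 5 in the labels and titled as biological replicates. The labels do not state how many animals went into a library, nor whether the Olig2 reporter marks present or past expression of Olig2.

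NMDA receptors are tetramers that need the obligatory GluN1 subunit (Grin1), which binds glycine or D-serine. GluN2 subunits (Grin2a to Grin2c here) bind glutamate and set the kinetics of the channel. The GluN3A subunit (Grin3a) also binds glycine, lowers calcium entry and is known from juvenile neurons and oligodendrocytes. Kainate receptors are built from GluK1 to GluK3 (Grik1 to Grik3), which can form channels alone, and from GluK4 and GluK5 (Grik4 and Grik5), which bind glutamate with high affinity and reach the surface in combination with the former. Both families have been described in glia, where oligodendrocyte progenitors receive glutamatergic input and astrocytes take up glutamate and release co-agonists.

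Members of both families share the coding sequence of the third membrane helix, which lines the channel gate, and it is shown because reads from so similar a stretch bear on how well the genes can be told apart. The 27 coding bases, read from GENCODE M21 transcripts on GRCm38, were identical in Grik3 and Grik5 and differed from Grik3 at 1 to 7 positions in the other 7 genes shown. Capitals mark the bases that differ from Grik3.
Grik3 (chr4:125694042-125694068, plus strand): tcctacacggccaacctggctgccttc
Grik5 (chr7:25015919-25015945, minus strand): tcctacacggccaacctggctgccttc
Grik1 (chr16:87936009-87936035, minus strand): tcctacacTgccaacctggctgccttc
Grik4 (chr9:42543869-42543895, minus strand): tcctacacggccaacctggcAgccttc
Grik2 (chr10:49240690-49240716, minus strand): tcGtaTacCgcTaacctAgcCgccttT
Grin1 (chr2:25297199-25297225, minus strand): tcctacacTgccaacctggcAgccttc
Grin2a (chr16:9653447-9653473, minus strand): AGTtacacAgccaacctggctgccttc
Grin2c (chr11:115253749-115253775, minus strand): AGctacacggccaaTctggcAgccttc
Grin3a (chr4:49770470-49770496, minus strand): AcAtacacAgcGaacTtggctgcTGtc
Around this stretch lay the longest identical run between any pair of the 10 genes, the 38 bases shared by Grik3 and Grik5. The median of the longest run over the 45 pairs was 13 bases. Read length is not given in the sources used here, so the share of reads that could fall wholly inside such a run was not computed. Grin1 also overlaps an antisense gene, Grin1os, over 13.5% of its exon length. That gene held 36 counts over the 12 libraries against 1082 for Grin1, and whether counting used strand is not stated. No other member shared more than 1.81% of its exon length with a neighbouring gene.

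Each library held between 12564767 and 36505583 counts assigned to genes. Between 21.2% and 57.1% of counted reads fell outside annotated genes, the highest share being in eGFP replicate 1 and the next, 42.5%, in eGFP/tdTomato replicate 2. The sort labels were checked on fixed marker lists. The summed level of 14 astrocyte markers was 44100 ± 7290 CPM (SD, n = 4; counts relative to the library total, scaled by the trimmed mean of M-values) in eGFP, 52900 ± 3940 in eGFP/tdTomato and 605 ± 72.6 in tdTomato. For 14 markers of myelinating oligodendrocytes the sums were 879 ± 401, 2560 ± 858 and 137000 ± 24900 in the same order, and for 14 markers of oligodendrocyte progenitors 1780 ± 581, 3100 ± 582 and 4680 ± 996. Ptprz1 alone held 1180 ± 416, 1970 ± 316 and 529 ± 149 CPM of these progenitor sums, in the same order. Of the 14 progenitor markers, 10 were lower and 1 higher in eGFP/tdTomato than in tdTomato at an edgeR adjusted p under 0.05. Their median log2 fold change was -2.04. Markers of 4 other cell types summed highest in eGFP: mural cells and fibroblasts (1260 ± 599 CPM, against 472 ± 93.3 in eGFP/tdTomato and 76.8 ± 16.9 in tdTomato), microglia and macrophages (401 ± 468), ependyma (264 ± 75.9) and endothelium (35.7 ± 10). Of the mural and fibroblast sum, Col1a2 alone held 408 ± 91.1 CPM in eGFP/tdTomato and 476 ± 114 in eGFP. Of the 10 markers of that list, 4 were lower and 0 higher in eGFP/tdTomato than in eGFP at an edgeR adjusted p under 0.05. Cspg4, also on the progenitor list, held 61.8 ± 15.9 CPM of the tdTomato sum. Schwann cell markers summed to 588 ± 114 CPM in tdTomato, 150 ± 25.7 in eGFP and 136 ± 11.1 in eGFP/tdTomato. Sox10, also on the progenitor list, held 537 ± 117 CPM of that tdTomato sum. The 20 neuron markers summed to 366 to 477 CPM in eGFP, 450 to 499 in eGFP/tdTomato and 815 to 1230 in tdTomato, where Elavl3 (479 ± 95 CPM) and Map2 (419 ± 99.8) made up most of the sum. Rbfox3, a nuclear marker of mature neurons, lay at 5.79 ± 2.33, 4.44 ± 1.2 and 2.73 ± 1.22 CPM in eGFP, eGFP/tdTomato and tdTomato. No marker of any list was at 0 in all 4 libraries of a fraction. These are bulk samples, so fewer cells of a type and less RNA per cell cannot be told apart.

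Several members lay close to a background that differed between libraries. As a reference, the mean level per kb of exon was taken over 1456 olfactory and vomeronasal receptor genes, which glia are not known to use; this receptor-gene floor was chosen after the members' values had been seen. It was 0.0608 to 0.483 CPM per kb in eGFP, 0.0482 to 0.270 in eGFP/tdTomato and 0.00773 to 0.125 in tdTomato, and was highest in eGFP replicate 1. Grin3a, Grik2, Grik4 and Grik5 stood at least 2 times above it in all 12 libraries. Grin2a did so in 2 eGFP libraries, in 1 tdTomato library and in no eGFP/tdTomato library, and Grin2b and Grin2c did so in no tdTomato library. Values near the floor are given with it below. For some of them, fits with the floor as a covariate or subtracted from the counts are also given. Whether background caused any difference between fractions was not tested.

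**Figure D1:**
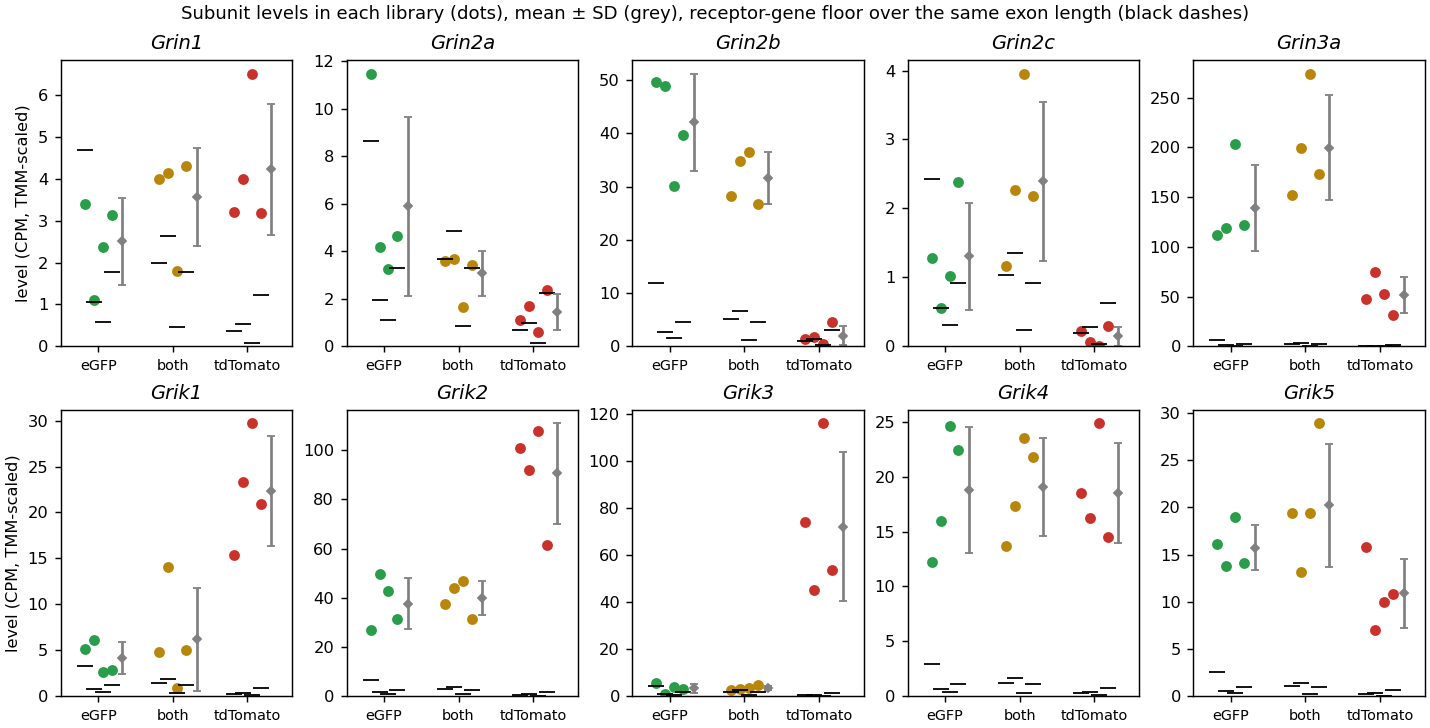
Level of each of the 10 subunit genes (CPM, linear axes that differ between panels) in the 4 libraries of each fraction, with dots for libraries, grey diamonds and bars for the mean ± SD, and black dashes for the receptor-gene floor over the same exon length. Grin2b and Grin3a sit higher in the eGFP and eGFP/tdTomato fractions, Grik1, Grik2 and Grik3 sit higher in tdTomato, and Grin2a lies near the dashes in most libraries.

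The question asked of each pair of fractions was which subunit genes differed in level. Each was tested with edgeR's quasi-likelihood test over 29361 genes with Benjamini-Hochberg adjustment, and a gene was called at an adjusted p under 0.05. The 3 comparisons share fractions and are therefore not independent. Between eGFP/tdTomato and eGFP, none of the 10 members was called and none had an unadjusted p under 0.05, beside 2.49% called (0.814% higher, 1.67% lower) and 9.95% with such a p among all genes tested; DESeq2 and limma-voom also called none of the 10. Between eGFP/tdTomato and tdTomato, 4 members were called higher in eGFP/tdTomato (Grin2b, Grin2c, Grin3a and Grik5) and 3 lower (Grik1, Grik2 and Grik3). Among all genes 16.8% were called higher and 12.4% lower, 29.2% in all; an unadjusted p under 0.05 was found for 8 members and 38.8% of all genes. Between eGFP and tdTomato, 4 members were called higher in eGFP (Grin2a, Grin2b, Grin2c and Grin3a) and the same 3 kainate genes lower, against 20.4% and 14.9% of all genes, 35.2% in all; 7 members and 45.4% of all genes had an unadjusted p under 0.05. Over all tested genes the middle log2 fold change stood at 0.70 for eGFP/tdTomato against tdTomato and 0.79 for eGFP against tdTomato, and 0.57 and 0.72 with DESeq2's size factors. The value depended on the genes and the fit: it was 0.47 and 0.49 over protein-coding genes, 0.12 and 0.18 when at least 1 CPM in 4 libraries was required, and 0.26 and 0.10 with reads outside genes as a covariate. For eGFP/tdTomato against eGFP it was -0.02 over all tested genes without that covariate.

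**Figure D2:**
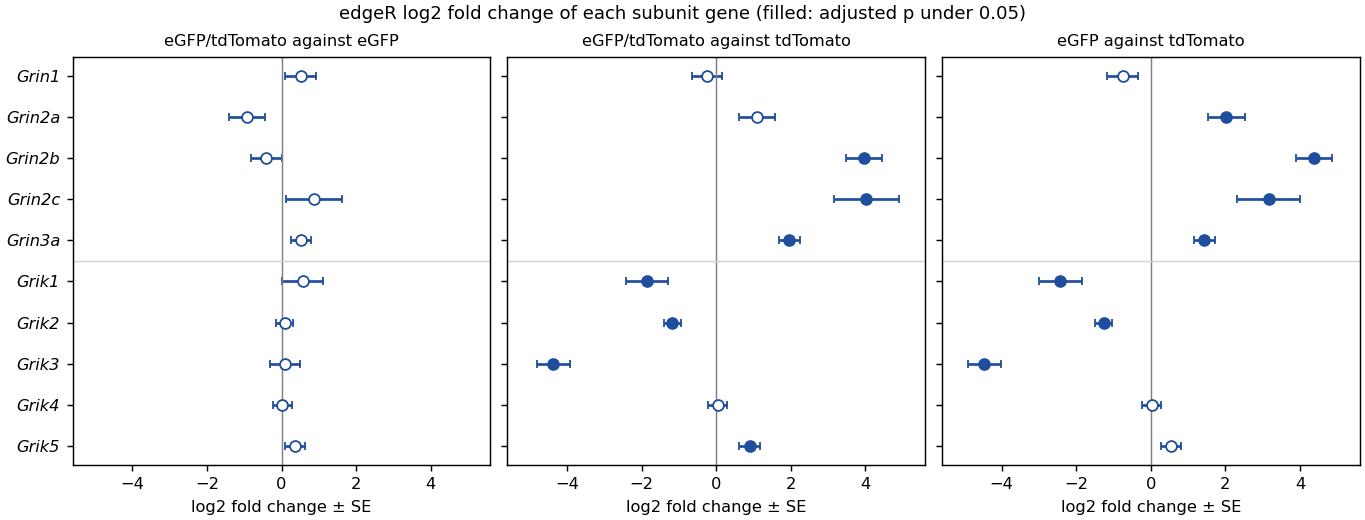
Log2 fold change ± SE of the 10 subunit genes in the 3 comparisons of fractions from edgeR, with filled circles for an adjusted p under 0.05 and open circles otherwise. No circle is filled in the left panel. In the other panels the filled NMDA receptor genes lie to the right of 0 and filled Grik1, Grik2 and Grik3 to the left. Grik5 is filled in the middle panel only, to the right of 0.

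Grin3a, the gene of the glycine-binding GluN3A subunit, lies on chromosome 4 (chr4:49661611-49845744, GRCm38, minus strand). Its level was 111.5, 118.7, 203 and 121.7 CPM in eGFP replicates 1, 2, 3 and 5. The eGFP/tdTomato libraries had 152.6, 199.1, 274 and 173.3 CPM in the same order, and tdTomato had 47.1, 75.0, 52.6 and 31.2 CPM. All 4 tdTomato libraries were below all 8 libraries with eGFP, while the eGFP and eGFP/tdTomato values overlapped, replicate 3 being highest in both. Within each number the eGFP/tdTomato library was above the eGFP library. Grin3a was 3.88-fold higher in eGFP/tdTomato than in tdTomato (log2 fold change 1.96 ± 0.28, SE; edgeR adjusted p = 5.80e-05) and 2.70-fold higher in eGFP than in tdTomato (1.43 ± 0.28; adjusted p = 0.000791). Against eGFP alone, eGFP/tdTomato was 0.53 ± 0.27 log2 units higher (edgeR adjusted p = 0.607), with an interval of 2 SE from -0.02 to 1.07.

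Per kb of exon, the scale on which levels of different genes are compared here, Grin3a was the most abundant of the 5 NMDA receptor genes in every library. It made up 80.6% ± 6.81 (SD, n = 4) of their summed level per kb in eGFP, 87.4% ± 1.63 in eGFP/tdTomato and 86.0% ± 5.51 in tdTomato. Its level per kb was 25.9 to 84.7 times that of the obligatory subunit gene Grin1 in eGFP, 30.2 to 120 times in eGFP/tdTomato and 6.39 to 14.8 times in tdTomato. With the length of the principal transcript in place of all exons the corresponding ratios were 18.7 to 61.1, 21.8 to 86.5 and 4.61 to 10.7. The excess over Grin1 thus held on both length scales in all 12 libraries.

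Grin1 (chr2:25291181-25319187, minus strand) was at 3.40, 1.11, 2.37 and 3.13 CPM in eGFP replicates 1, 2, 3 and 5. It stood at 3.99, 4.15, 1.81 and 4.30 CPM in eGFP/tdTomato and at 3.21, 4.002, 6.51 and 3.17 CPM in tdTomato. The ranges of the 3 fractions overlapped and no comparison was called. eGFP differed from tdTomato by -0.75 ± 0.42 log2 units (edgeR adjusted p = 0.168), a difference that passed the threshold when eGFP/tdTomato replicate 3 was left out of the shared fit (-1.01; adjusted p = 0.0488). Relative to the receptor-gene floor, Grin1 was 2.61 to 86.8 times as high per kb in tdTomato but 0.726 to 4.02 times in eGFP, where 1 of 4 libraries reached 2 times the floor. Of the 5 NMDA receptor genes, Grin1 was therefore the only one besides Grin3a to exceed 2 times the floor in all 4 tdTomato libraries.

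Grin2b, which encodes the GluN2B subunit typical of young neurons, lies on chromosome 6 (chr6:135713233-136173511, minus strand). In eGFP replicates 1, 2, 3 and 5 it had 49.6, 48.9, 30.1 and 39.7 CPM, and in eGFP/tdTomato 28.3, 34.9, 36.5 and 26.8 CPM. The tdTomato libraries held 1.47, 1.75, 0.372 and 4.501 CPM. No tdTomato library came near the other 8, and each was only 1.28 to 1.94 times its receptor-gene floor. The gene was 15.6-fold higher in eGFP/tdTomato (log2 3.96 ± 0.48; edgeR adjusted p = 9.76e-06) and 20.7-fold higher in eGFP (log2 4.37 ± 0.49; adjusted p = 3.68e-06) than in tdTomato. It was the GluN2 gene with the highest level per kb in the fractions with eGFP, at 1.69 ± 0.369 CPM per kb in eGFP and 1.27 ± 0.193 in eGFP/tdTomato, fractions that differed by -0.41 ± 0.42 log2 units (eGFP/tdTomato against eGFP; edgeR adjusted p = 1.00).

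Grin2c, the gene of the GluN2C subunit known from cerebellar granule cells and from astrocytes, lies on chromosome 11 (chr11:115249169-115267243, minus strand) and was low throughout. Its level was 1.28, 0.554, 1.02 and 2.38 CPM in eGFP replicates 1, 2, 3 and 5 and 1.16, 2.27, 3.95 and 2.19 CPM in eGFP/tdTomato. In tdTomato it had 5, 2, 0 and 8 counts, or 0.223, 0.0602, 0 and 0.295 CPM. All tdTomato libraries lay below all libraries with eGFP. Grin2c was higher in eGFP/tdTomato (log2 4.03 ± 0.87; edgeR adjusted p = 0.00215) and in eGFP (log2 3.16 ± 0.85; adjusted p = 0.00874) than in tdTomato, and the second call was lost without eGFP replicate 5 (2.43; adjusted p = 0.0558). Only 2 eGFP and 2 eGFP/tdTomato libraries reached 2 times the floor, the highest being eGFP/tdTomato replicate 3 at 16.3 times.

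Grin2a, which encodes the GluN2A subunit that becomes prominent as neurons mature, lies on chromosome 16 (chr16:9567898-9995560, minus strand). It stood at 11.5, 4.202, 3.27 and 4.64 CPM in eGFP, 3.58, 3.67, 1.66 and 3.41 CPM in eGFP/tdTomato, and 1.11, 1.69, 0.595 and 2.36 CPM in tdTomato, in the order of replicates 1, 2, 3 and 5. The eGFP values were all above the tdTomato values, with replicate 1 far above the rest. eGFP exceeded tdTomato by 2.03 ± 0.50 log2 units (edgeR adjusted p = 0.00479). Without eGFP replicate 1, the library with the highest receptor-gene floor, the difference was 1.28 (adjusted p = 0.049), a change of over 1.5 times in fold. The call was lost with the floor as a covariate (0.94; edgeR adjusted p = 0.0565) and with the floor subtracted from the counts (2.45; adjusted p = 0.0897). In eGFP/tdTomato the gene was 0.757 to 1.92 times its floor and in eGFP 1.33 to 3.00 times, with 6 of these 8 libraries under 2 times the floor. Against tdTomato, eGFP/tdTomato differed by 1.09 ± 0.49 (edgeR adjusted p = 0.113), and against eGFP by -0.93 ± 0.48 (adjusted p = 0.597).

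**Figure D3:**
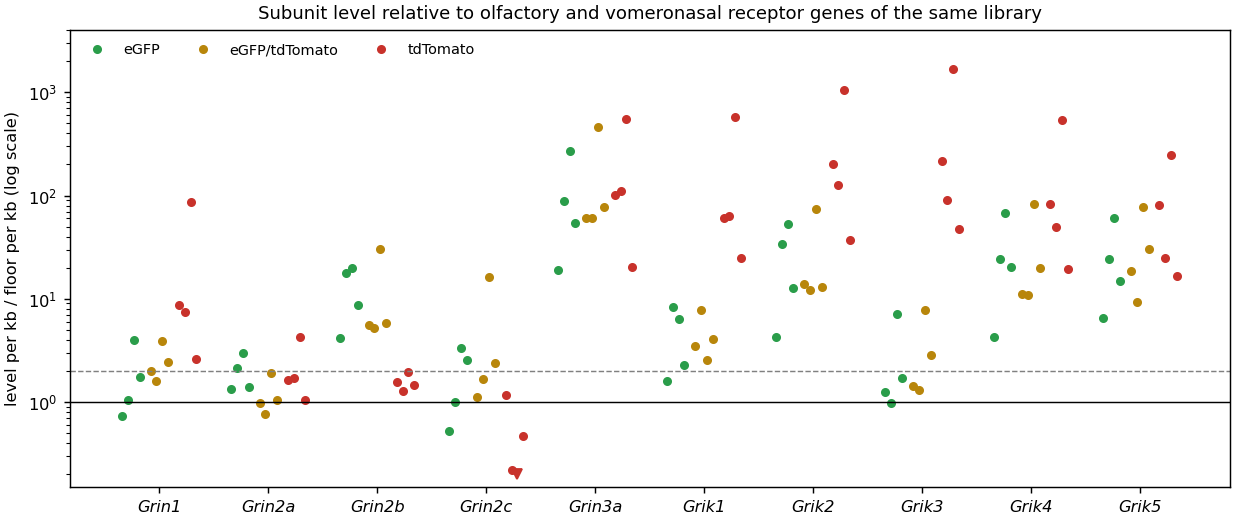
Level per kb of each subunit gene divided by the receptor-gene floor of the same library (log axis), 1 dot for each of the 12 libraries, with a solid line at a ratio of 1 and a dashed line at 2; the triangle marks a library with no Grin2c count. Grin3a, Grik2, Grik4 and Grik5 lie above the dashed line throughout, while most Grin2a dots and every tdTomato dot of Grin2b and Grin2c lie below it or at the bottom of the axis.

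Kainate receptor genes divided differently. Grik3, the gene of the GluK3 subunit, lies on chromosome 4 (chr4:125490700-125714173, plus strand). It reached 73.9, 44.8, 115.9 and 53.4 CPM in tdTomato replicates 1, 2, 3 and 5. The eGFP libraries had 5.41, 0.970, 3.88 and 2.83 CPM and the eGFP/tdTomato libraries 2.59, 3.15, 3.39 and 4.74 CPM. The lowest tdTomato library was thus several times above the highest library of the other fractions, which overlapped each other. Grik3 was 20.7-fold lower in eGFP/tdTomato (log2 -4.37 ± 0.44; edgeR adjusted p = 1.34e-06) and 22.1-fold lower in eGFP (log2 -4.47 ± 0.45; adjusted p = 1.06e-06) than in tdTomato. eGFP/tdTomato differed from eGFP by 0.09 ± 0.41 log2 units, with an interval of 2 SE from -0.73 to 0.91. It was 47.5 to 1671 times the receptor-gene floor in tdTomato, while 1 eGFP and 2 eGFP/tdTomato libraries reached 2 times the floor.

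The promoter windows of Grik3 and of Grik2, a second kainate gene higher in tdTomato, are shown as the 250 bases before the start site in RefSeq on GRCm38.p6, with each CG dinucleotide in capitals. A window was at hand for 6 of the 10 members.
Grik3 (chr4:125490446-125490695, plus strand): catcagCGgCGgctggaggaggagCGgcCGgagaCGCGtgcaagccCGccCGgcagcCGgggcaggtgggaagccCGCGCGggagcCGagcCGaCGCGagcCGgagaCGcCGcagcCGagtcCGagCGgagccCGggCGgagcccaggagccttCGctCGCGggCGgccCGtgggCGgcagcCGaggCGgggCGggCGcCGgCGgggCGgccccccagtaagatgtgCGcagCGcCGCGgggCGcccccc
Grik2 (chr10:49788755-49789004, minus strand): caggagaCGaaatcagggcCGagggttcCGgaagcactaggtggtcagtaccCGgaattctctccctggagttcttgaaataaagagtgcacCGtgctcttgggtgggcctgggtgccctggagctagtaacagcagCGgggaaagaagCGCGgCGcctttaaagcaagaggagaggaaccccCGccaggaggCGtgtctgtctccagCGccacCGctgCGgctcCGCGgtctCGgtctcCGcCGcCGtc
The Grik3 window was 82% G or C and held 42 CG dinucleotides, and the Grik2 window was 62.8% G or C with 20. The windows of Grin1 and Grin2c were 58.8% with 27 and 68.8% with 15. Those of Grik4 and Grik5 were 69.6% with 36 and 75.2% with 8. A G or C content above that of Grik2 was thus also found in members not higher in tdTomato. All 32851 windows of that length had medians of 52.4% and 6. Both strands of the 6 windows were searched for the E-boxes CAGCTG and CAGATG and the SOX core ACAAAG. None of the 3 motifs was present in any of the 6 windows, beside 13%, 14.4% and 16.5% of all windows; this says only that these letters are not in these windows.

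Grik2, which encodes GluK2, lies on chromosome 10 (chr10:49094833-49788766, minus strand). The tdTomato libraries held 101, 91.8, 107.9 and 61.5 CPM in the order of replicates 1, 2, 3 and 5. Its level was 26.97, 49.6, 42.6 and 31.2 CPM in eGFP and 37.3, 44.0, 46.9 and 31.5 CPM in eGFP/tdTomato. Every tdTomato library was above the other 8, and eGFP and eGFP/tdTomato covered nearly the same range. Grik2 was 2.27-fold lower in eGFP/tdTomato (log2 -1.18 ± 0.23; edgeR adjusted p = 0.00092) and 2.41-fold lower in eGFP (log2 -1.27 ± 0.23; adjusted p = 0.000454) than in tdTomato. Unlike Grik3 it remained at least 4.22 times the floor in every library with eGFP. The eGFP/tdTomato and eGFP fractions differed by 0.09 ± 0.23 log2 units, an interval of -0.37 to 0.54.

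Grik1, which encodes GluK1, lies on chromosome 16 (chr16:87895900-88290265, minus strand). Its tdTomato libraries had 15.3, 23.4, 29.7 and 20.9 CPM, against 5.13, 6.10, 2.597 and 2.83 CPM in eGFP and 4.74, 14.1, 0.828 and 5.00 CPM in eGFP/tdTomato. Of the eGFP/tdTomato libraries, replicate 2 lay just under the lowest tdTomato library and replicate 3 below every eGFP library. Grik1 was lower in eGFP (log2 -2.43 ± 0.57; edgeR adjusted p = 0.00356) and in eGFP/tdTomato (log2 -1.86 ± 0.56; adjusted p = 0.0194) than in tdTomato. The second call was lost without eGFP/tdTomato replicate 1 (-1.76; edgeR adjusted p = 0.0545) or replicate 5 (-1.78; adjusted p = 0.0563).

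Grik4 and Grik5, the genes of the high-affinity subunits, varied least between fractions among the 5 kainate genes. Grik4 (chr9:42518135-42944493, minus strand) was at 12.2, 16.0, 24.7 and 22.5 CPM in eGFP, 13.7, 17.4, 23.6 and 21.8 CPM in eGFP/tdTomato and 18.5, 16.3, 24.9 and 14.5 CPM in tdTomato. The means of 18.8 ± 5.74, 19.1 ± 4.46 and 18.5 ± 4.55 CPM (SD, n = 4) lay well within the spread of libraries. Its 3 log2 fold changes were between 0.02 and 0.04 with SEs of 0.26, so differences from -0.50 to 0.56 log2 units stayed within 2 SE; their sign changed with the scaling of the libraries.

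Grik5 (chr7:25009849-25072346, minus strand) had 16.1, 13.8, 18.9 and 14.1 CPM in eGFP, 19.4, 13.1, 19.4 and 28.9 CPM in eGFP/tdTomato and 15.8, 7.01, 9.97 and 10.8 CPM in tdTomato. Its level in eGFP/tdTomato was 1.86-fold that in tdTomato (log2 0.89 ± 0.27; edgeR adjusted p = 0.0203), although tdTomato replicate 1 lay above eGFP/tdTomato replicate 2. That call was lost in 6 of the 12 fits that left out 1 library: eGFP replicate 1 or 5, tdTomato replicate 2 or 3, or eGFP/tdTomato replicate 3 or 5 (adjusted p 0.0567 to 0.141). eGFP against tdTomato was not called (0.53 ± 0.27; edgeR adjusted p = 0.137).

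Libraries did not overlap for 3 members above and 3 below in eGFP/tdTomato against tdTomato, beside 20.6% and 14.8% of all genes. For eGFP against tdTomato the numbers were 4 above and 3 below, beside 19.6% and 14.3%. In eGFP/tdTomato against eGFP no member separated in either direction, beside 3.75% and 4.18% of all genes.

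The make-up of the kainate family per kb of exon followed these levels. Grik3 was 33.3% ± 6.24 (SD, n = 4) of the summed level per kb in tdTomato, 3.76% ± 2.46 in eGFP and 3.34% ± 0.516 in eGFP/tdTomato. Grik4 and Grik5 made up 31.2% ± 7.18 and 30.5% ± 4.33 in eGFP, 27.8% ± 4.42 and 34.0% ± 8.91 in eGFP/tdTomato, and 13.3% ± 0.506 and 9.28% ± 3.23 in tdTomato. Grik2 held a similar share in all fractions, 28.1% ± 6.14, 26.7% ± 5.54 and 29.6% ± 4.84 in eGFP, eGFP/tdTomato and tdTomato. In tdTomato the order of Grik2 and Grik3 depended on the length used: the ratio of Grik2 to Grik3 was 0.631 to 1.39 with all exons and 0.886 to 1.95 with the principal transcript. Summed over the 5 genes, the kainate family was at 214 ± 55.9 CPM in tdTomato, 79.6 ± 12.2 in eGFP and 88.9 ± 7.5 in eGFP/tdTomato. The NMDA family summed to 59.3 ± 17.2, 190 ± 33 and 240 ± 56.4 CPM in the same order.

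**Figure D4:**
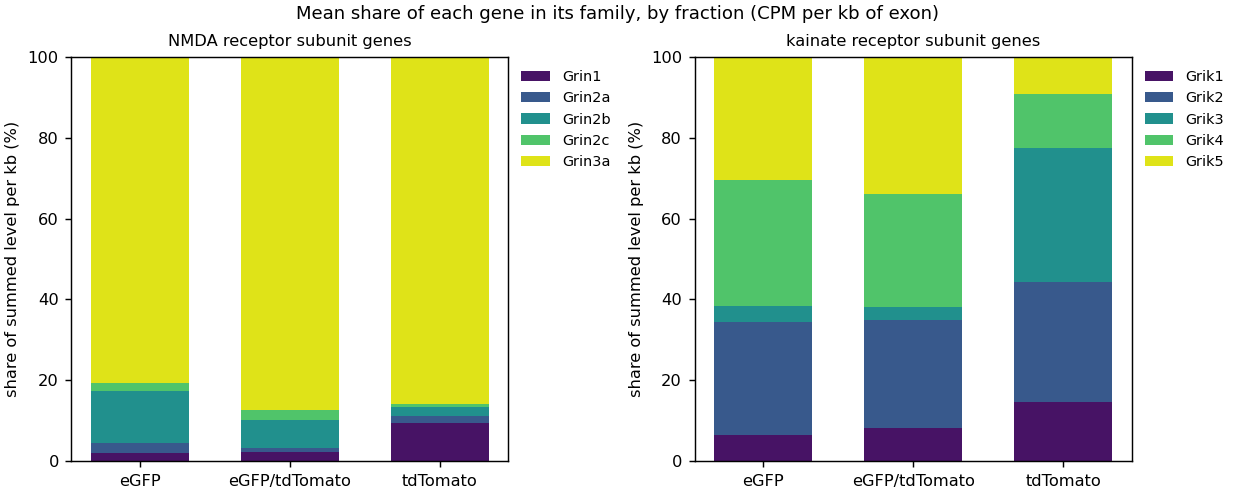
Mean share (%) of each gene in the summed level per kb of exon of the 5 NMDA receptor genes (left) and the 5 kainate receptor genes (right), 1 stacked bar for each fraction, means of 4 libraries. Grin3a fills over 80% of every NMDA bar, and Grik3 takes 33.3% of the kainate bar in tdTomato against under 4% in the other fractions.

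Genes that act with these receptors were taken from fixed lists. Their counts called stand beside 16.8% higher and 12.4% lower of all genes in eGFP/tdTomato against tdTomato. The shares were 20.4% and 14.9% in eGFP against tdTomato, and 0.814% and 1.67% in eGFP/tdTomato against eGFP. Of the 8 other ionotropic glutamate receptor genes, 2 were called higher and 2 lower in eGFP/tdTomato than in tdTomato (median log2 fold change 0.24), and 1 higher and 3 lower in eGFP than in tdTomato (-0.22). The first of these counts was 1 in 10 of the 12 fits that left out a library, all but those without eGFP replicate 3 or tdTomato replicate 1. The AMPA receptor genes split in opposite directions: Gria1 was at 363 ± 124 CPM in eGFP, 67.2 ± 16.3 in eGFP/tdTomato and 6.66 ± 3.03 in tdTomato, whereas Gria2, whose edited subunit blocks calcium entry, was at 32.1 ± 1.75, 62.7 ± 10.8 and 276 ± 45.7 CPM. Between eGFP/tdTomato and eGFP, 3 genes of that list were called; Grin2d and Grin3b, its NMDA receptor genes, were not. Gria1 was lower in eGFP/tdTomato (log2 -2.43 ± 0.32; edgeR adjusted p = 0.000476), and Gria2 (0.97 ± 0.17; adjusted p = 0.0054) and Gria4 (0.96 ± 0.21; adjusted p = 0.0208) were higher. The count of 2 higher dropped to 0 when eGFP replicate 5 or eGFP/tdTomato replicate 3 was left out. It dropped to 1 on omitting replicate 1 or 2 of eGFP, and likewise for replicate 1 or 5 of eGFP/tdTomato. The count of 1 lower held in all 12 fits that left out a library.

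Of 8 receptor auxiliaries 7 were tested, with 3 called higher and 3 lower in eGFP/tdTomato than in tdTomato, 3 and 2 in eGFP than in tdTomato, and none between eGFP/tdTomato and eGFP. In that last comparison 1 was called higher when eGFP replicate 1, or the 3 libraries numbered 1, were left out. Neto1 and Neto2 encode membrane proteins that slow kainate receptor gating. Neto1 was at 10.3 ± 3.3 CPM in tdTomato against 1.06 ± 1.71 in eGFP and 1.36 ± 0.529 in eGFP/tdTomato, and was lower in both than in tdTomato (log2 -3.32 ± 0.85 and -2.92 ± 0.82; edgeR adjusted p = 0.00621 and 0.0135). Neto2 had the opposite order, with 49.9 ± 11.7 CPM in eGFP, 67.0 ± 17.2 in eGFP/tdTomato and 11.4 ± 3.21 in tdTomato. It was 4.39-fold higher in eGFP and 5.90-fold higher in eGFP/tdTomato than in tdTomato (edgeR adjusted p = 8.71e-06 and 1.59e-06); Neto2 was outside the rule for named genes and was chosen after its values were seen.

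Among 12 genes that supply or clear the co-agonists D-serine and glycine, 5 were called higher and 1 lower in each of the fractions with eGFP than in tdTomato (median log2 fold change 1.20 in eGFP/tdTomato and 0.95 in eGFP). Leaving out eGFP/tdTomato replicate 3 or eGFP replicate 1 raised the number lower to 2 in eGFP/tdTomato and 3 in eGFP; so did leaving out eGFP replicate 5 for the former and eGFP replicate 3 for the latter. Slc7a10, which encodes the D-serine and small neutral amino acid exchanger Asc-1, was at 757 ± 181 CPM in eGFP/tdTomato, 296 ± 155 in eGFP and 2.42 ± 0.506 in tdTomato. Its difference from tdTomato was 8.29 ± 0.46 log2 units in eGFP/tdTomato (edgeR adjusted p = 2.78e-09). It was also higher in eGFP/tdTomato than in eGFP (1.35 ± 0.34; edgeR adjusted p = 0.0481), a comparison in which no gene of the list was called when any library other than eGFP replicates 1 and 3 was left out. Without eGFP replicate 3 the count higher was 2. It was 3 with DESeq2, 2 with limma-voom, 2 with the replicate block, 4 with the covariate for reads outside genes and 5 with the floor as a covariate. The serine exchanger gene Slc1a4 (467 ± 112, 237 ± 97.5 and 25.4 ± 7.01 CPM) and the glycine transporter gene Slc6a9 (461 ± 159, 178 ± 127 and 53.7 ± 20.5 CPM) had their highest means in eGFP/tdTomato and their lowest in tdTomato. Psat1, an enzyme gene of serine synthesis, was lower in eGFP than in tdTomato (log2 -2.98 ± 0.23, edgeR adjusted p = 7.27e-08). Phgdh, another such gene of the list, was 4.82-fold higher in eGFP (log2 2.27 ± 0.31, edgeR adjusted p = 2.85e-05). Psph, also of that pathway, was not called (0.17 ± 0.18, edgeR adjusted p = 0.47). Phgdh and Psph were outside the rule for named genes and were added after their values were seen.

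Of 18 receptor scaffold and trafficking genes, 5 were higher and 5 lower in eGFP/tdTomato than in tdTomato, and 6 and 6 in eGFP than in tdTomato, with median log2 fold changes of 0.05 and 0.07. Dlg2, which encodes the postsynaptic scaffold PSD-93, was at 53.2 ± 15 CPM in tdTomato, 5.05 ± 2.32 in eGFP and 4.90 ± 1.45 in eGFP/tdTomato. Grip1 and Shank2, scaffolds of AMPA receptors and of the postsynaptic density, ran the other way, with 32.7 ± 9.26, 39.4 ± 9.61 and 8.03 ± 2.49 CPM for Grip1 and 15 ± 2.42, 10.2 ± 2.55 and 2.33 ± 0.32 CPM for Shank2 in eGFP, eGFP/tdTomato and tdTomato. Of 18 genes of calcium and kinase signalling downstream of the receptors, 5 were higher and 6 lower in eGFP/tdTomato than in tdTomato and 5 and 5 in eGFP than in tdTomato. The count of 6 lower dropped to 3 without tdTomato replicate 1 or 2 or without replicate 2 or 5 of eGFP/tdTomato. Camk2g and Camk2d, subunits of calmodulin-dependent kinase II, were at 463 ± 121 and 243 ± 50 CPM in eGFP against 40.3 ± 7.1 and 27.3 ± 3.13 in tdTomato. Fyn, a kinase that phosphorylates GluN2B, was 14.0-fold lower in eGFP than in tdTomato (log2 -3.80 ± 0.24; edgeR adjusted p = 7.17e-09). Between eGFP/tdTomato and eGFP no scaffold gene was called, although 1 was called higher with the replicate block, with either covariate or with the floor subtracted, and 1 lower without eGFP replicate 3. In the same comparison 1 signalling gene was higher, Rasgrf1, an exchange factor that binds GluN2B (1.17 ± 0.26; edgeR adjusted p = 0.0216). Leaving out any of 4 libraries ended the call on that list: replicates 2 and 5 of eGFP, and replicates 3 and 5 of eGFP/tdTomato.

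Genes with the most similar profile to a member were searched among 11322 protein-coding genes with a mean of at least 5 CPM. Likeness was the root mean square difference of log2(CPM + 0.5) values, centred over the 12 libraries, and the 2 closest genes are given for the 8 members that reached 5 CPM in a fraction. For Grin3a these were Ano6, a phospholipid scramblase (0.216 log2 units), and Klf12, a transcription factor (0.231). Grin2b was closest to Osmr, the oncostatin M receptor (0.303), and Slc26a7, an anion transporter (0.333), and Grin2a to Sh3pxd2a (0.327) and Celf4 (0.348). Osmr was at 28.3 ± 4.61, 23.1 ± 3.27 and 1.12 ± 0.877 CPM in eGFP, eGFP/tdTomato and tdTomato, a drop in tdTomato like that of Grin2b. Grik3 was closest to Col11a2, a fibrillar collagen (0.251), and Trim36 (0.271), with Col11a2 at 124 ± 52.1 CPM in tdTomato against 5.70 ± 2.27 in eGFP and 6.10 ± 1.8 in eGFP/tdTomato. Grik2 was closest to Commd9 (0.109) and Leprotl1 (0.145), Grik4 to Fitm2 (0.0905) and 2310009B15Rik (0.117), and Grik5 to Smarcd2 (0.219) and Vegfa (0.239). Grik1 had the most distant neighbours, Arhgap20 (0.534) and the sodium channel gene Scn3a (0.589). These likenesses are descriptions over libraries that share the same 3 fractions.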

How the data were processed

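Sorted spinal cord glia were profiled by RNA sequencing on a BGISEQ-500 in 12 libraries, 4 for each of 3 fractions. Raw read counts per Ensembl gene were deposited by the authors, 1 table for each library; STAR, HTSeq, GRCm38 and mm10 are named in the submitters' processing notes, without versions, annotation release or strand setting. The 5 summary lines naming no gene were left out of library sizes and tests. Of 53465 genes, 53360 (99.8%) matched a symbol in GENCODE M21. No libraries were identical. Counts were fitted with edgeR 4.0.16 (R 4.3.3): expression filter by fraction, TMM scaling, robust quasi-likelihood F-tests with fraction as the factor over all 12 libraries, SE from the F statistic, and adjustment over the 29361 genes tested. Scripts were tested on simulated counts. Alternatives were DESeq2 1.42.0, its size factors in edgeR, limma-voom (limma 3.58.1), other filters, covariates, subsets, left-out libraries and a replicate block; 3 based on the receptor-gene floor were added after seeing the data. All 10 members were named, with up to 3 called genes for each context list and comparison (largest change, at least 5 CPM, no overlap of libraries) and the 2 most similar genes for each member. The members and lists were chosen with earlier results of these data known. Libraries are called biological replicates in the labels, but separate animals are not stated, so p-values measure the spread between these samples. Library depth of 12564767 to 36505583 counts sets the precision, and low counts carry more counting error. The helix stretch of 1 member is not reported here.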

Additional observations from a re-analysis of the deposited data

Results flagged for a closer look

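In each of 30 groups (10 members in 3 fractions of 4 libraries) the highest and lowest library was checked for a gap to its nearest neighbour, relative to the range, above Dixon's critical value. Chance gives such a gap in about 1 of 20 groups, and 4 were found. Grin2a was highest in eGFP replicate 1, at 11.5 CPM against 3.27 to 4.64 in the other eGFP libraries. Grin2a was also lowest in eGFP/tdTomato replicate 3, at 1.66 CPM against 3.41 to 3.67. Grin1 was lowest in the same eGFP/tdTomato library, at 1.81 CPM against 3.99 to 4.30. Grin3a was highest in eGFP replicate 3, at 203 CPM against 111 to 122. The receptor-gene floor was 0.483 CPM per kb in eGFP replicate 1, the highest of its fraction, and 0.0482 in eGFP/tdTomato replicate 3, the lowest of its fraction. The part of this background in the 3 flags on Grin1 and Grin2a was not tested. Grin3a in eGFP replicate 3 was over 200 times its floor.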

How the results depend on the processing

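The numbers of members called held within 1.5 times under all 24 alternatives. Leaving out 1 library gave 0 members called either way in eGFP/tdTomato against eGFP, 3 to 5 higher and 2 to 3 lower in eGFP/tdTomato against tdTomato, and 3 to 4 higher and 3 to 4 lower in eGFP against tdTomato. In the same fits and order, 103 to 475, 3767 to 6232 and 4359 to 7632 of all genes were higher. Those lower numbered 323 to 656, 2888 to 5452 and 3514 to 5625. Grin2b, Grin3a, Grik2 and Grik3 kept both their calls against tdTomato in each alternative, as did Grin2c for eGFP/tdTomato and Grik1 for eGFP. Labels give each number as a set, with no word on what its 3 libraries have in common. For that reason the numbers were not taken as pairs in the main fit. Correlations of the deviations of same-numbered libraries ran from -0.24 to 0.66. Libraries numbered 3 had 0.66, 0.62 and 0.53 in the 3 comparisons and correlated best with their own number in each. For the other numbers the values were -0.24 to 0.29, and not every library correlated best with its own number. With the replicate block the members called in eGFP/tdTomato against tdTomato were 5 higher and 3 lower, Grin2a being added (1.12, edgeR adjusted p = 0.0466). Over all 29361 genes tested, 6181 were then higher and 4133 lower in that comparison, in place of 4935 and 3628. Grin3a stayed uncalled in eGFP/tdTomato against eGFP with the block (0.52, edgeR adjusted p = 0.229). Over all genes, 566 were higher and 673 lower in eGFP/tdTomato against eGFP, in place of 239 and 491. Those 2 counts ranged from 60 to 672 and from 201 to 888 over the alternatives; for eGFP/tdTomato against tdTomato the number lower rose from 3628 to 5452 without eGFP replicate 1.

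Subtracting the receptor-gene floor left Grin1 at 0.473 CPM in eGFP and 1.85 in eGFP/tdTomato, Grin2a at 0.426 in tdTomato and -0.0876 in eGFP/tdTomato, Grin2c at 0.253 in eGFP and -0.14 in tdTomato, and Grik3 at 1.39 in eGFP and 1.88 in eGFP/tdTomato. Grik5 also lost its call against tdTomato in a fit of the 2 fractions alone (0.72, adjusted p = 0.0662) and without the libraries numbered 5 (0.67, 0.145); Grik1 in eGFP/tdTomato lost it without those numbered 1 (-1.89, 0.0709) or 5 (-1.80, 0.0886), and Grin2a in eGFP without those numbered 1 (1.38, 0.0756) or with reads outside genes as a covariate (1.00, 0.062). Grin2a in eGFP/tdTomato gained a call without tdTomato replicate 5 (1.43, 0.0488). The cause of these changes was not tested.

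Signs turned only for differences that were not called. For Grik4 in eGFP/tdTomato against eGFP the log2 fold change became -0.03 with DESeq2's size factors, with DESeq2 and with the floor subtracted, -0.02 with no filter, -0.06 with 1 CPM in 4 libraries and in the fit of 2 fractions, -0.1 with the covariate for reads outside genes and -0.01 without the libraries numbered 1. For Grik4 in eGFP/tdTomato against tdTomato it was -0.07 with DESeq2's size factors, DESeq2 and no filter, -0.11 with 1 CPM and with 2 fractions, -0.13 without the libraries numbered 5 and -0.03 with the floor subtracted. For Grik4 in eGFP against tdTomato it was -0.04 with DESeq2's size factors and DESeq2, -0.05 with no filter, -0.06 with 1 CPM, -0.01 with 2 fractions and with the replicate block, -0.17 without the libraries numbered 5 and -0.0 with the floor subtracted. Leaving out 1 library moved these 3 values over -0.2 to 0.19, -0.36 to 0.22 and -0.27 to 0.19. In eGFP/tdTomato against eGFP, left-out libraries moved Grik1 over -0.23 to 0.87, Grik2 over -0.1 to 0.26 and Grik3 over -0.19 to 0.37. Grik2 was -0.01 without the libraries numbered 1, and Grik3 -0.02 with 2 fractions and -0.16 without those numbered 5. In eGFP/tdTomato against tdTomato, left-out libraries moved Grin1 over -0.48 to 0.04 (over all alternatives -0.95 to 0.04), and Grin2a was -1.01 with the floor subtracted. With 4 libraries a fraction, SEs of 0.23 to 0.87 limit what could be called, and Grin1, Grin2a and Grin2c rest on at most 206 counts in any library.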
